A study of Homo sapiens with 6 samples.

Results

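The 10 chemokine genes CXCL1, CXCL2, CXCL3, CXCL5, CXCL6, CXCL8, CXCL10, CXCL11, CXCL12 and CCL2 were examined, taken by gene name from the 20532 genes of the deposited count table. All 10 were found under 1 identifier each, and all 10 passed the filter on low counts. They were read as 6 genes for neutrophil-attracting ligands (CXCL1, CXCL2, CXCL3, CXCL5, CXCL6 and CXCL8), 2 for interferon-induced ligands (CXCL10 and CXCL11), and CXCL12 and CCL2 beside them. The cells were ACHN, a human renal carcinoma line that the labels assign to clear cell renal cell carcinoma. The libraries shDNAJC2 1, 2 and 3 came from a stable line with a lentiviral short hairpin against DNAJC2, a co-chaperone of the ribosome-associated complex. The other 3 (shCtrl 1, 2 and 3) came from a stable line with a negative control hairpin, so both groups had been through lentiviral transduction. The libraries were labelled biological replicates without a statement on separate transductions, and p-values therefore measure the spread between these libraries, which may be technical.

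Chemokines are small secreted proteins that guide leukocytes along a concentration gradient by binding receptors on their surface. The ligands CXCL1, CXCL2, CXCL3, CXCL5, CXCL6 and CXCL8 carry the motif Glu-Leu-Arg before their first cysteines and attract neutrophils through CXCR2, and CXCL6 and CXCL8 also through CXCR1. Their genes are classic targets of NF-kappaB downstream of interleukin-1 and tumour necrosis factor. CXCL10 and CXCL11 lack that motif and attract activated T cells and natural killer cells through CXCR3, and their genes are induced by interferons. CXCL12 is the constitutive stromal ligand of CXCR4, and CCL2 attracts monocytes through CCR2. In renal carcinoma, CXCL8 and its relatives are known as angiogenic factors.

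Total counts ranged from 17491462 to 24308609 in shDNAJC2 libraries and from 22687843 to 25760291 in shCtrl libraries. DNAJC2 was at 51.2, 50.4 and 38.5 CPM (counts scaled to the TMM-normalized library size) in shDNAJC2 1, 2 and 3, against 76.7, 69.8 and 86.5 CPM in shCtrl 1, 2 and 3. Its groups did not overlap, and the log2 fold change was -0.74 (SE 0.15, edgeR adjusted p = 0.429, DESeq2 adjusted p = 0.0496). The library shCtrl 3 stood apart from the other controls. It differed more than 2-fold from shCtrl 1 in 2080 genes and from shDNAJC2 2 in 78, while its DNAJC2 level was that of a control. Whether its label or its culture differed cannot be told apart from these counts, and this doubt applies to each value with or without it. Each member is therefore also given without shCtrl 3, a choice made from these same counts. That fit sets the knockdown libraries against shCtrl 1 and shCtrl 2, which differed more than 2-fold from each other in 48 genes. Its p-values leave out the spread that shCtrl 3 adds to the controls. The library shDNAJC2 3 also stood apart, with more than 2-fold differences from shDNAJC2 1 in 547 genes and from shDNAJC2 2 in 460, against 114 between those 2 libraries. It was the highest knockdown library for 9 of the 10 chemokine genes, all but CXCL8, and the share over all genes was not counted. From shCtrl 1, shDNAJC2 3 differed more than 2-fold in 805 genes, against 2084 for shDNAJC2 1 and 1983 for shDNAJC2 2. Its place nearer to shCtrl 1 was thus not particular to the chemokine genes. Of 11 markers of renal epithelium and clear cell carcinoma, 7 averaged at least 1 CPM, with sums of 152 to 158 CPM in shDNAJC2 and 168 to 243 CPM in shCtrl libraries. PAX2 and LRP2 had at most 1 count in any library. Of 10 blood and immune markers, 7 averaged under 1 CPM and CD3E, S100A8 and S100A9 were at 0 in all libraries. Their sums, mostly from CD68, were 74.4 to 84.6 CPM in shDNAJC2 and 81.8 to 96.6 CPM in shCtrl libraries. Of 5 endothelial markers CDH5 was at 0 in all libraries, and the sums were 56.0 to 57.9 CPM in shDNAJC2 and 57.8 to 72.3 CPM in shCtrl libraries. TEK, at 49.9 to 53.9 CPM in shDNAJC2 and 52.6 to 71.2 CPM in shCtrl libraries, made up most of that sum. KDR was at 2.19, 2.57 and 1.79 CPM in shDNAJC2 1, 2 and 3, against 0.287, 0.305 and 3.01 CPM in shCtrl 1, 2 and 3, and without shCtrl 3 both KDR and PECAM1 rose and TEK fell.

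Promoter windows were read from RefSeq (GRCh38.p14), from 250 bases before to 50 bases after each start, for 9 of the 10 genes; CCL2 was the other. The windows of CXCL8, CXCL5, CXCL6 and CXCL10 are shown, because CXCL8 and CXCL10 represent the 2 classes and CXCL5 and CXCL6 are close relatives with different patterns. They lie at chr4:73740319-73740618 (plus strand), chr4:73998628-73998927 (minus strand), chr4:73836428-73836727 (plus strand) and chr4:76023448-76023747 (minus strand). Capitals mark matches, on either strand, to a kappaB core (GGANNTNCC), an AP-1 site (TGANTCA), a C/EBP site (TTGCNNAA) or an interferon response core (GAAANNGAA).

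CXCL8: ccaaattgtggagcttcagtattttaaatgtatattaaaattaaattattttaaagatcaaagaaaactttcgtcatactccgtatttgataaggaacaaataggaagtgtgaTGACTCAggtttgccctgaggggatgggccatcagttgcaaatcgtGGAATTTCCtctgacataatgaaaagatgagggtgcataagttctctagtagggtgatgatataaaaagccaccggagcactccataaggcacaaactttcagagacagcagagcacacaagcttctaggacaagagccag

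CXCL5: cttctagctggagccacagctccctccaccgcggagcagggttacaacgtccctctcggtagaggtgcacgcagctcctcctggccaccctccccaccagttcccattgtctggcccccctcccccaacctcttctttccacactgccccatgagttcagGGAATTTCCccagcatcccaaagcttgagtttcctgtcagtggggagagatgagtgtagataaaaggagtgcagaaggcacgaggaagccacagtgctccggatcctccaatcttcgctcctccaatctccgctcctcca

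CXCL6: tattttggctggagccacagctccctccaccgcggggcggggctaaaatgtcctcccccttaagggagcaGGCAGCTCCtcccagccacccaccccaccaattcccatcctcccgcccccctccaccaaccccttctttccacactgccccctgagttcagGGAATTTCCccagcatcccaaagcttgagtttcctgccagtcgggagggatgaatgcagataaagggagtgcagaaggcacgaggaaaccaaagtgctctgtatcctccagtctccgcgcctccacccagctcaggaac

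CXCL10: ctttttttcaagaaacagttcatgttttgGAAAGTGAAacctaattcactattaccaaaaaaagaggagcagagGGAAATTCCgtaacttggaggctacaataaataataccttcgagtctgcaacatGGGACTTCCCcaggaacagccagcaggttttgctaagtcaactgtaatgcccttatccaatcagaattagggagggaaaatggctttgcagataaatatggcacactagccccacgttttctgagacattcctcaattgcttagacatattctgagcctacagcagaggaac

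The kappaB core was present in 8 of the 9 windows, all but that of CXCL12, and in 16.1% of 35116 promoter windows of the same length. All 8 held the same 9 bases, GGAATTTCC, on one strand or the other, a stretch present in 0.461% of the 35116 windows and singled out after the matches had been seen. It began at position -91 in CXCL8, -90 in CXCL5 and -89 in CXCL6, counted from the RefSeq start. In CXCL10 (position -176) and CXCL11 (position -75) the same bases lay on the other strand. An AP-1 site was found in CXCL8 and CXCL11 (2 of 9, against 7.71% of all windows), a C/EBP site in CXCL2 (1 of 9, against 10.5%) and an interferon response core in CXCL2, CXCL3 and CXCL10 (3 of 9, against 8.11%). The CXCL5 and CXCL6 windows were identical in 83.1% of aligned positions, those of CXCL1 and CXCL3 in 82.5%, and those of CXCL8 and CXCL10 in 49.4%. These matches describe letters in the windows, and binding was not measured. Sites that depart from a pattern were not counted, so a window without a match can still hold such a site.

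The neutrophil-attracting genes did not follow 1 pattern across the libraries. CXCL8 was high in all knockdown libraries and in shCtrl 3, the lowest knockdown value of CXCL5 and of CXCL3 exceeded their highest control value, and CXCL2 was high in shDNAJC2 3. CXCL1 and CXCL6 were highest in shCtrl 1 and 2, as were the interferon-induced CXCL10 and CXCL11 and also CXCL12 and CCL2. No member passed the test over all 6 libraries, and 8 of the 10 passed without shCtrl 3, where 17.8% of all genes were called higher and 17% lower.

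Per length of annotated exons, CXCL8 had the highest level of the 10 genes in both groups. It averaged 800 ± 142 CPM per kb in shDNAJC2 and 310 ± 357 CPM per kb in shCtrl libraries (SD, n = 3 each). CXCL5 followed at 45.2 ± 4.81 CPM per kb in shDNAJC2 libraries, where it lay above CXCL1 at 34.1 ± 23.9 CPM per kb by less than the spread of CXCL1. In shCtrl libraries CXCL1 came next after CXCL8 at 60.6 ± 42.9 CPM per kb, then CCL2 at 32.4 ± 24.2 and CXCL5 at 29.3 ± 4.61 CPM per kb, a set of 3 whose spreads overlap. The wide lead of CXCL8 in the control mean came from shCtrl 3. CXCL8 was at 96.7, 111 and 721 CPM per kb in shCtrl 1, 2 and 3, against 72.3, 96.5 and 13.1 for CXCL1. CXCL2, CXCL3 and CXCL10 lay between 8.07 and 9.08 CPM per kb in shDNAJC2 libraries and did not differ beyond their spread. CXCL12 was lowest in shDNAJC2 libraries, at 0.812 ± 0.155 CPM per kb. In shCtrl libraries CXCL12, at 3.86 ± 2.82 CPM per kb, and CXCL11, at 3.98 ± 2.37 CPM per kb, did not differ beyond their spread. The expressed transcript can be shorter than the annotated exons, which for CXCL12 cover 6.08 kb, against 3532 bases for 1 of its transcripts, so its place in the order in shCtrl libraries depends on the length used.

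**Figure D1:**
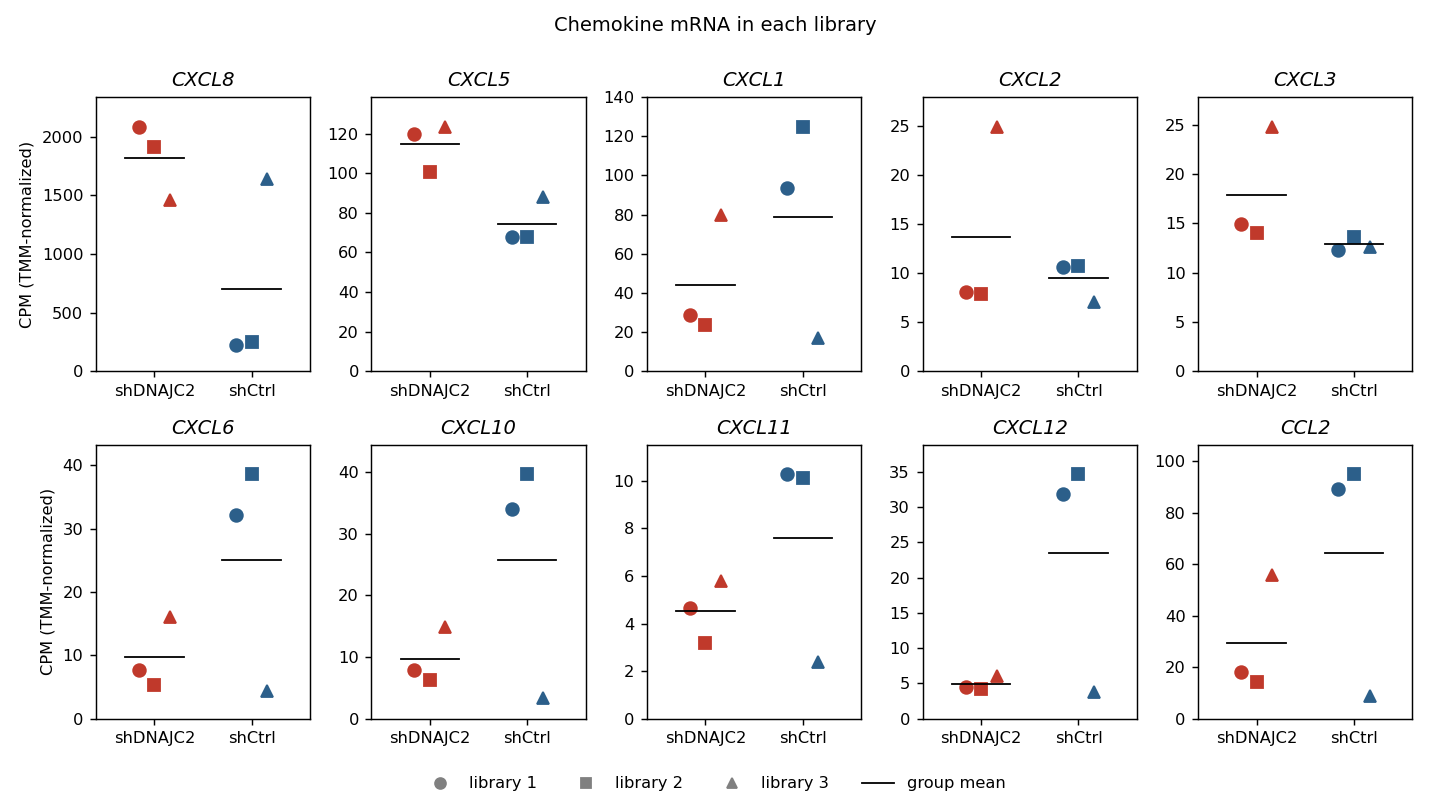
CPM (TMM-normalized, linear axes from 0) of the 10 chemokine genes, 1 panel per gene, with shDNAJC2 on the left and shCtrl on the right. Symbols mark library 1, 2 or 3 of each group and lines the group means. CXCL8 in shCtrl 3, at 1640 CPM, lies among the knockdown libraries, and CXCL5 and CXCL3 are the panels in which the groups do not overlap.

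CXCL8, also called interleukin-8, was at 2088, 1910 and 1462 CPM in shDNAJC2 1, 2 and 3, against 220, 252 and 1640 CPM in shCtrl 1, 2 and 3. The knockdown libraries were all high, and so was shCtrl 3, at 7.46 times shCtrl 1 and 6.51 times shCtrl 2, so the groups overlapped. The fitted log2 fold change over all 6 libraries was 1.37 (SE 0.77, 95% interval -0.46 to 3.20, edgeR adjusted p = 0.451). Without shCtrl 3, CXCL8 rose by 2.95 ± 0.19 on the log2 scale (SE, edgeR adjusted p = 4.8e-05). Without shCtrl 1 or without shCtrl 2 the log2 fold change was 0.96 and 0.98.

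CXCL5, a neutrophil attractant of epithelial cells, was at 120, 101 and 124 CPM in shDNAJC2 1, 2 and 3, against 67.8, 67.6 and 88.0 CPM in shCtrl 1, 2 and 3. Each knockdown library was above each control library. Of the controls, shCtrl 3 was the highest and lay nearer to shDNAJC2 2 than to shCtrl 1 or shCtrl 2. The 6 libraries spanned 1.83-fold for CXCL5, against 9.49-fold for CXCL8. The log2 fold change was 0.62 (SE 0.15, 95% interval 0.28 to 0.97), at an unadjusted p of 0.0039 and an adjusted p of 0.429 in edgeR. DESeq2 gave an adjusted p of 0.0813. Without shCtrl 3, CXCL5 rose by 0.76 ± 0.11 (SE, edgeR adjusted p = 0.0017). The exact permutation p for CXCL5 (two-sided) was 0.1, and with 3 libraries in each group no smaller value can be reached.

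CXCL6, the closest relative of CXCL5 and a ligand of both CXCR1 and CXCR2, had another order of libraries. CXCL6 stood at 7.72, 5.38 and 16.1 CPM in shDNAJC2 1, 2 and 3, against 32.2, 38.6 and 4.44 CPM in shCtrl 1, 2 and 3. The high libraries were shCtrl 1 and shCtrl 2, the lowest of the 6 was shCtrl 3, and the groups overlapped. Over all 6 libraries the log2 fold change was -1.35 (SE 0.76, edgeR adjusted p = 0.451), and without shCtrl 3 CXCL6 fell by 1.83 ± 0.35 (SE, adjusted p = 0.0052). Without shCtrl 2 it was -0.89. The difference between CXCL5 and CXCL6 in log2 CPM was 3.94, 4.20 and 2.93 in the knockdown libraries, against 1.07, 0.81 and 4.28 in shCtrl 1, 2 and 3. Both printed windows hold the shared kappaB stretch, and the CXCL6 window also holds a further kappaB core match at position -180.

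CXCL1, CXCL2 and CXCL3 encode closely related ligands of CXCR2 and differed from each other across the libraries. CXCL1 was at 28.9, 23.8 and 79.8 CPM in shDNAJC2 1, 2 and 3, against 93.7, 125 and 17.0 CPM in shCtrl 1, 2 and 3. It was highest in shCtrl 1 and 2, lowest in shCtrl 3 and intermediate in shDNAJC2 3, with a log2 fold change of -0.83 (SE 0.75, edgeR adjusted p = 0.583). Without shCtrl 3, CXCL1 fell by 1.29 ± 0.42 (SE, adjusted p = 0.0426). Without shDNAJC2 3 its log2 fold change was -1.56, and it was -0.53 without shDNAJC2 2 and -0.31 without shCtrl 2. CXCL2 was at 8.04, 7.90 and 24.9 CPM in shDNAJC2 1, 2 and 3, against 10.6, 10.7 and 7.07 CPM in shCtrl 1, 2 and 3. A single library, shDNAJC2 3, was high. The log2 fold change of CXCL2 was 0.54 (SE 0.48, edgeR adjusted p = 0.578), and without shDNAJC2 3 it was -0.23. CXCL3 was at 14.9, 14.0 and 24.8 CPM in shDNAJC2 1, 2 and 3, against 12.3, 13.6 and 12.6 CPM in shCtrl 1, 2 and 3. The groups did not overlap for CXCL3, though shDNAJC2 2 and shCtrl 2 lay close together. Its log2 fold change was 0.48 (SE 0.24, edgeR adjusted p = 0.433, exact permutation p = 0.1), and it was 0.18 without shDNAJC2 3. Of the 50-base stretches of these transcripts, 5.73% for CXCL1, 9.24% for CXCL2 and 5.26% for CXCL3 occurred in another of the 3, and no 100-base stretch did. How the authors' counting treated such reads is not given in the sources used here, and these 3 genes carry that uncertainty.

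CXCL10 was at 7.88, 6.34 and 14.8 CPM in shDNAJC2 1, 2 and 3, against 34.0, 39.7 and 3.39 CPM in shCtrl 1, 2 and 3. CXCL11 was at 4.65, 3.17 and 5.77 CPM in shDNAJC2 1, 2 and 3, against 10.3, 10.1 and 2.39 CPM in shCtrl 1, 2 and 3. Both genes had the same order of groups, with shCtrl 1 and 2 high, the knockdown libraries between, and shCtrl 3 the lowest of the 6. For CXCL10 the 6 libraries spanned 11.7-fold, which was the widest span of the 10 genes, and its counts ranged from 81 in shCtrl 3 to 1040 in shCtrl 2. The log2 fold changes were -1.40 (SE 0.80) for CXCL10 and -0.74 (SE 0.54) for CXCL11 (edgeR adjusted p = 0.453 and 0.513). Without shCtrl 3, CXCL10 fell by 1.90 ± 0.29 and CXCL11 fell by 1.15 ± 0.22 (SE, edgeR adjusted p = 0.0019 and 0.0058). Without shCtrl 2 the log2 fold changes were -0.93 and -0.47, and that of CXCL11 was -0.45 without shCtrl 1. CXCL9, the other interferon-induced ligand of CXCR3, had 1 count in shDNAJC2 3 and 0 in the other libraries, where 0 counts allow up to 0.115 to 0.179 CPM.

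CXCL12 was at 4.54, 4.25 and 6.01 CPM in shDNAJC2 1, 2 and 3, against 31.9, 34.7 and 3.72 CPM in shCtrl 1, 2 and 3. The 3 knockdown libraries and shCtrl 3 were all low and shCtrl 1 and 2 high, with no intermediate library. Its log2 fold change of -2.24 was the largest in size of the 10 over all 6 libraries (standard error 0.74, unadjusted p 0.0193, edgeR adjusted p = 0.429, DESeq2 adjusted p = 0.0902). Without shCtrl 3, CXCL12 fell by 2.74 ± 0.16 (SE, edgeR adjusted p = 4.0e-05). CCL2 was at 18.2, 14.1 and 55.9 CPM in shDNAJC2 1, 2 and 3, against 89.3, 95.01 and 8.95 CPM in shCtrl 1, 2 and 3. It followed the order of CXCL1, with shDNAJC2 3 intermediate and shCtrl 3 the lowest library. The log2 fold change of CCL2 was -1.13 (SE 0.87, edgeR adjusted p = 0.534), and without shCtrl 3 it fell by 1.63 ± 0.46 (SE, adjusted p = 0.0252). It was -1.98 without shDNAJC2 3 and -0.72 without shCtrl 2. Fibroblast markers, a cell type that produces CXCL12 and CCL2 in tissue, summed to 1066 to 1772 CPM in shDNAJC2 and 1152 to 4363 CPM in shCtrl libraries over 7 genes, and all 7 averaged at least 1 CPM. COL1A1, the largest of them, was at 572, 623 and 1066 CPM in shDNAJC2 1, 2 and 3, against 2796, 2785 and 695 CPM in shCtrl 1, 2 and 3. COL1A2, COL3A1 and PDGFRB also fell without shCtrl 3, while the log2 fold changes of PDGFRA, DCN and LUM were then -0.06, -0.32 and -0.27 (edgeR adjusted p = 0.732, 0.0699 and 0.125). Their part in the chemokine values was not tested. In such bulk libraries, fewer cells with a transcript and less of it per cell cannot be told apart.

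**Figure D2:**
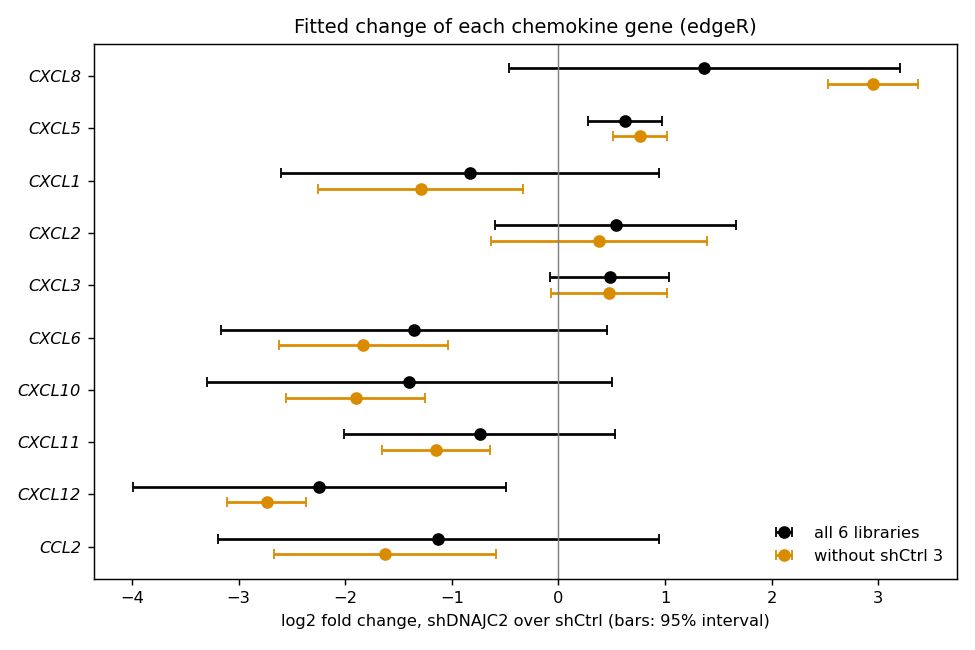
Fitted log2 fold change of each chemokine gene, shDNAJC2 over shCtrl, from edgeR, with 95% intervals as bars, over all 6 libraries (black) and without shCtrl 3 (orange). Over all libraries the intervals of CXCL5 (0.28 to 0.97) and CXCL12 (-3.99 to -0.49) leave out 0. Without shCtrl 3 those of CXCL2 and CXCL3 include 0.

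Over all 6 libraries edgeR called 0 of the 10 genes, as it called 0 (0%) of the 13988 genes tested. At an unadjusted p under 0.05 there were 2 of the 10, CXCL5 and CXCL12, against 11.3% of all genes (1585, of which 559 higher and 1026 lower). DESeq2 called 0 of the 9 with an adjusted p, against 0.18% of all genes (18 of 10015), and limma-voom called 0 of the 10 and 0 genes in all, with 1473 at an unadjusted p under 0.05. The knockdown libraries lay above all controls for 2 of the 10 (7.33% of all genes) and below all controls for 0 of the 10 (8.43%). Without shCtrl 3, 2 of the 10 rose, against 17.8% of the 14201 genes tested, and 6 fell, against 17% of them. The median size of the log2 fold change was 0.98 over the 10 genes and 0.21 over all genes tested, and 1.46 and 0.31 without shCtrl 3. The members were listed with earlier results of these data known, and no test was run over the list. Between the controls, shCtrl 3 was more than 2-fold below both other controls for 6 of the 10 (6.96% of all genes) and more than 2-fold above both for CXCL8 alone (6%).

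The contrast between the classes was taken in each library as the mean log2 CPM of the 6 neutrophil-attracting genes minus that of CXCL10 and CXCL11. It was 2.83, 3.04 and 2.96 in shDNAJC2 1, 2 and 3, against 1.18, 1.25 and 3.43 in shCtrl 1, 2 and 3. The knockdown libraries lay close together, shCtrl 1 and 2 below them and shCtrl 3 above them. The group means were 2.94 ± 0.11 in shDNAJC2 and 1.96 ± 1.28 in shCtrl (SD, n = 3 each), a difference of 0.99 that is smaller than the spread of the controls. The interferon-induced mean was 2.62, 2.19 and 3.23 in the knockdown libraries, against 4.23, 4.33 and 1.55 in shCtrl 1, 2 and 3. The neutrophil-attracting mean spanned less, at 5.45, 5.23 and 6.18 in the knockdown libraries, against 5.41, 5.58 and 4.99 in the controls.

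The small span of the neutrophil-attracting mean covered opposite patterns of its members. Without CXCL8 that mean was 4.33, 4.10 and 5.31 in shDNAJC2 1, 2 and 3, against 4.94, 5.11 and 3.85 in shCtrl 1, 2 and 3. The mean of the other 5 genes was thus lowest in shCtrl 3, where CXCL8 was high. CXCL8 minus CXCL10 was 8.03, 8.21 and 6.61 in the knockdown libraries, against 2.69, 2.66 and 8.88 in shCtrl 1, 2 and 3. CXCL1 minus CXCL10 moved less, at 1.86, 1.89 and 2.42 in the knockdown libraries, against 1.46, 1.65 and 2.30 in the controls. CXCL8 minus CXCL1 varied more, at 6.17, 6.32 and 4.19 in the knockdown libraries, against 1.23, 1.01 and 6.59 in the controls.

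**Figure D3:**
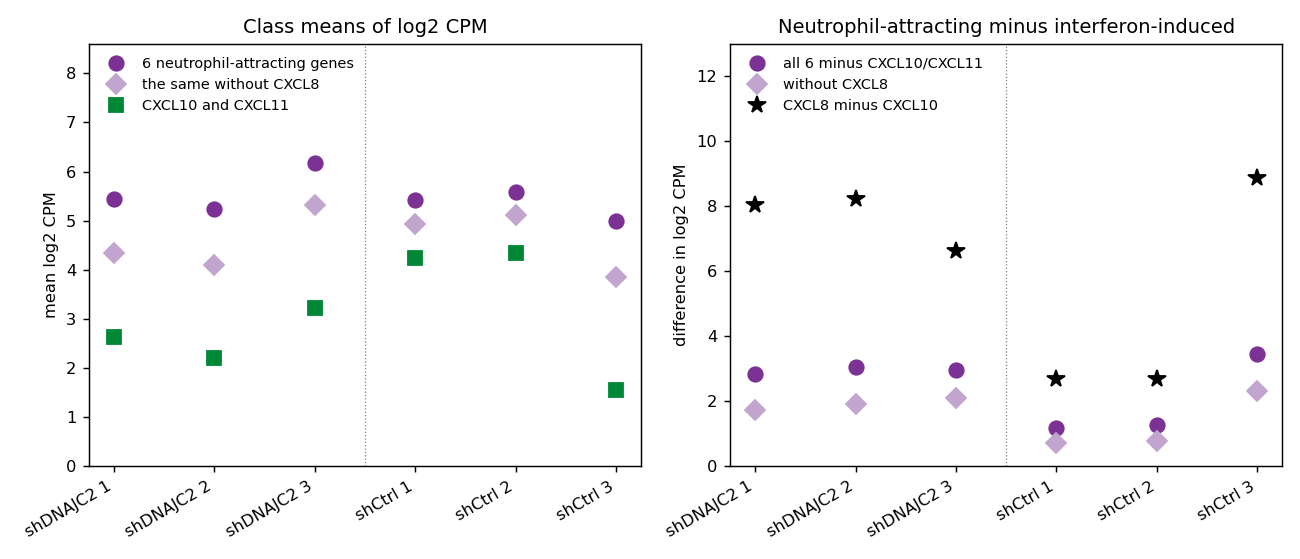
Left, mean log2 CPM of the 6 neutrophil-attracting genes, of the same genes without CXCL8, and of CXCL10 with CXCL11 in each library. Right, the differences between the classes in log2 CPM, with shDNAJC2 libraries left of the dotted line and shCtrl libraries right of it. In all 3 measures on the right, shCtrl 3 lies above the knockdown libraries and shCtrl 1 and 2 below them, from 1.18 to 3.43 for the contrast of all genes.

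Of the 10 genes, 8 lie on chromosome 4. On GRCh38, CXCL8 (ENSG00000169429) spans 73740506 to 73743716, followed by CXCL6 at 96.0 kb, CXCL1 at 129 kb, CXCL5 at 258 kb, CXCL3 at 298 kb and CXCL2 at 359 kb, measured between transcription starts. CXCL10 (ENSG00000169245, 76021117 to 76023497, minus strand) and CXCL11 (ENSG00000169248) lie at 2283 and 2301 kb. CXCL5 (ENSG00000163735) spans 73995642 to 73998779 on the minus strand and CXCL6 (ENSG00000124875) spans 73836497 to 73849064 on the plus strand. The order of the libraries from low to high was identical for CXCL1, CXCL6 and the distant CXCL10. It was the same for CXCL12 and CCL2 on other chromosomes. The share of all genes with that order was not counted, but 686 of 10962 other genes had a Pearson r above 0.95 with CXCL10. A part of position in these values was not tested. The neighbours CXCL8 and CXCL6 differed, with shCtrl 1 and 2 the lowest libraries for CXCL8 and the highest for CXCL6. Relative to their means over 6 libraries, CXCL8 stood at 1.21, 1.09 and 0.70 in shDNAJC2 1, 2 and 3 and -2.03, -1.84 and 0.87 in shCtrl 1, 2 and 3 (log2 CPM). CXCL6, the next member along the chromosome, stood at -0.68, -1.20 and 0.37 in the knockdown libraries and 1.36, 1.63 and -1.47 in the controls. The 3 genes at 258 to 359 kb, CXCL5, CXCL3 and CXCL2, had positive log2 fold changes over all 6 libraries, while CXCL6 and CXCL1 had negative ones, and the sign of CXCL2 turned without shDNAJC2 3. CXCL12 lies on chromosome 10 (44370165 to 44386493) and CCL2 on chromosome 17 (34255218 to 34257203). CXCL10 and CXCL11 lie within ART3 on the other strand, at a mean of 0.756 CPM and with no shared exon bases, and CXCL6 shared 94 exon bases with the pseudogene PPBPP1 on its own strand.

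**Figure D4:**
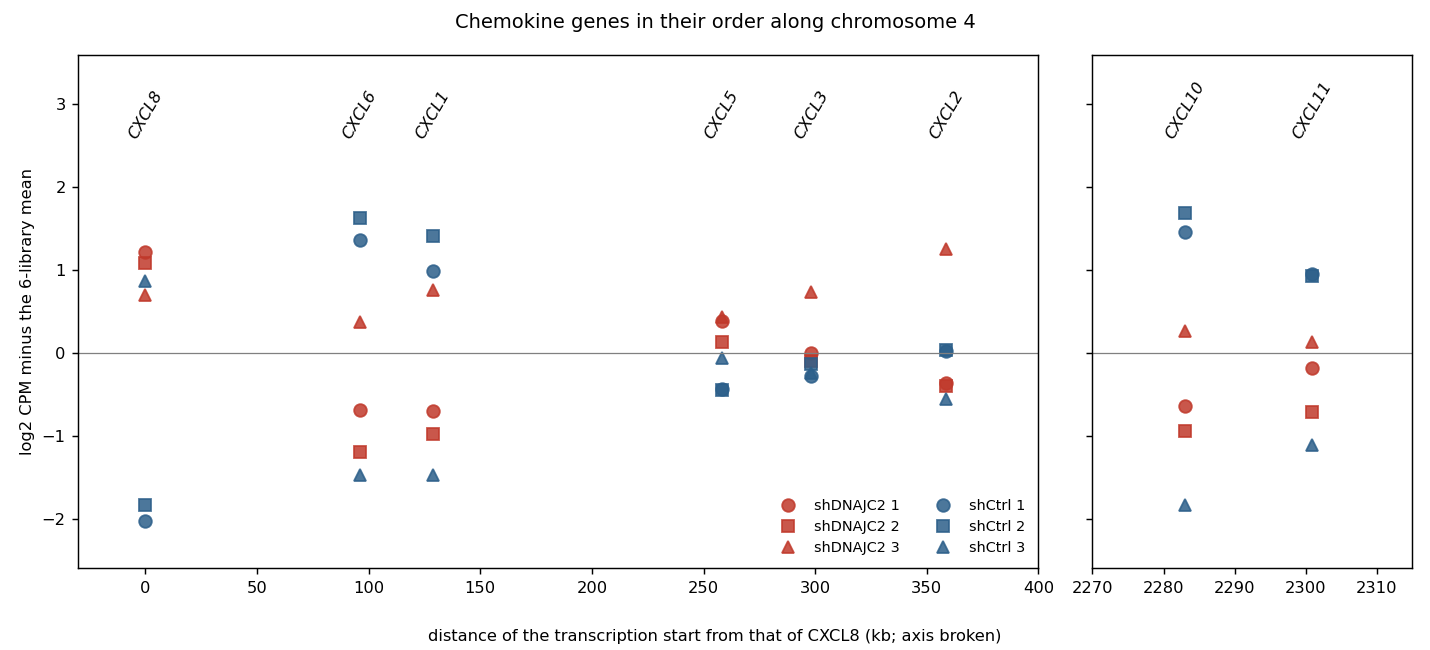
Log2 CPM of the 8 chromosome 4 genes minus each gene's mean over the 6 libraries, against the distance of its transcription start from that of CXCL8 in kb, on a broken axis. Red symbols are shDNAJC2 and blue symbols shCtrl libraries. The controls shCtrl 1 and 2 are lowest for CXCL8 and highest for its neighbour CXCL6, with shCtrl 1 at -2.03 for CXCL8 and 1.36 for CXCL6.

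Of 38 other chemokine ligand genes, 36 were in the table, 15 of them at 0 in all libraries, and 6 were tested over all 6 libraries. CCL20, which attracts cells with CCR6, was at 6.16, 5.56 and 9.35 CPM in shDNAJC2 1, 2 and 3, against 1.11, 1.57 and 4.02 CPM in shCtrl 1, 2 and 3. The groups did not overlap, shCtrl 3 was the highest control, and the log2 fold change was 1.66 (SE 0.49, unadjusted p 0.0124). CX3CL1, a membrane-bound ligand, was at 0.94, 0.60 and 0.95 CPM in the knockdown libraries, against 2.87, 3.63 and 0.50 CPM in the controls. CCL5, an attractant of T cells, was at 0.63, 1.02 and 1.07 CPM in the knockdown libraries, against 1.52, 1.45 and 0.92 CPM in the controls. In edgeR over all 6 libraries 0 of the 6 passed after adjustment and CCL20 alone had an unadjusted p under 0.05. Without shCtrl 3, where 8 were tested, 1 rose and 2 fell, among them CCL20 by 2.40 and CX3CL1 with a log2 fold change of -1.93 (edgeR adjusted p = 8.3e-04 and 0.0013). These counts are near the shares over all genes, 17.8% higher and 17% lower.

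The receptors named above for the 10 ligands, CXCR1, CXCR2, CXCR3, CXCR4 and CCR2, were at or near 0. ACKR3, a further receptor gene, was at 0.37, 0.66 and 0.40 CPM in shDNAJC2 1, 2 and 3, against 0.45, 0.15 and 0.29 CPM in the controls. Of 23 receptor genes 20 averaged under 1 CPM, and CXCR1, CCR2, CX3CR1, XCR1 and ACKR1 were among those at 0 in all libraries. CXCR2, CXCR3 and CXCR4, named after their values had been seen, had at most 0.126, 0.0418 and 0.119 CPM in any library. CXCR5, whose ligand is CXCL13, is expressed on B cells. CXCR5 was at 32.4, 36.0 and 43.3 CPM in shDNAJC2 1, 2 and 3, against 35.3, 42.2 and 46.8 CPM in shCtrl 1, 2 and 3. CCR10 was at 4.44, 4.37 and 5.53 CPM in the knockdown libraries and 6.85, 5.96 and 5.61 CPM in the controls, without overlap and at a log2 fold change of -0.36. ACKR4 was at 1.25, 1.26 and 1.91 CPM in the knockdown libraries, against 2.50, 1.91 and 1.17 CPM in the controls. In edgeR 0 of the 3 tested receptors passed after adjustment, 0 had an unadjusted p under 0.05, and none passed without shCtrl 3.

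Among 6 enzymes that cut chemokines, 5 were tested and 0 passed over all libraries. DPP4, which removes the first residues of CXCL10, CXCL11 and CXCL12, was at 71.4, 61.7 and 71.1 CPM in shDNAJC2 1, 2 and 3, against 99.4, 109 and 51.7 CPM in shCtrl 1, 2 and 3. Without shCtrl 3 it fell by 0.61 (edgeR adjusted p = 0.0033), and ADAM17, which sheds membrane-bound CX3CL1, rose by 0.59 (adjusted p = 0.0044). ADAM17 was at 84.8, 75.3 and 71.6 CPM in the knockdown libraries, against 50.2, 52.5 and 74.1 CPM in the controls, where shCtrl 3 overlapped them. MMP2, which cleaves CXCL12, was at 261, 287 and 263 CPM in the knockdown libraries, against 319, 339 and 337 CPM in the controls, without overlap between the groups. Its log2 fold change was -0.29 (SE 0.10, unadjusted p 0.0259). ADAM10, which sheds CXCL16 and CX3CL1, was at 149, 126 and 143 CPM in the knockdown libraries, against 163, 164 and 114 CPM in the controls.

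Genes upstream of the 2 classes were read from 2 further lists. These hold inducers and also inhibitors, such as TNFAIP3 and USP18, so counts over a list mix both. Of 19 tested genes upstream of the neutrophil chemokines, 0 passed over all libraries, and without shCtrl 3 a count of 10 rose and 1 fell, against 17.8% higher and 17% lower of all genes tested. Interleukin-1 beta (IL1B) was at 257, 261 and 286 CPM in shDNAJC2 1, 2 and 3, against 39.6, 44.4 and 271 CPM in shCtrl 1, 2 and 3. Interleukin-1 alpha (IL1A) was at 14.7, 13.9 and 16.2 CPM in the knockdown libraries, against 3.28, 4.35 and 13.6 CPM in the controls. Both genes had shCtrl 3 beside the knockdown libraries, as CXCL8 did. Without shCtrl 3 they rose by 2.68 and 1.97 on the log2 scale (edgeR adjusted p = 9.3e-06 and 2.3e-04). IL1RAP, a subunit of the interleukin-1 receptor, was at 18.8, 15.6 and 12.2 CPM in the knockdown libraries, against 10.2, 10.2 and 13.4 CPM in the controls. JUN, a component of AP-1, was at 281, 334 and 118 CPM in the knockdown libraries, against 93.9, 95.9 and 432 CPM in the controls. CEBPB, a transcription factor of inflammatory genes, was at 194, 254 and 207 CPM in the knockdown libraries, against 129, 139 and 344 CPM in the controls.

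Of 15 tested genes upstream of CXCL10 and CXCL11, 0 passed over all libraries and 4 had an unadjusted p under 0.05, against 11.3% of all genes. Without shCtrl 3 a count of 1 rose and 8 fell, against 17.8% higher and 17% lower of all genes. USP18, a feedback inhibitor of interferon receptors, was at 11.9, 12.5 and 25.1 CPM in shDNAJC2 1, 2 and 3, against 67.9, 83.0 and 10.9 CPM in shCtrl 1, 2 and 3. Its order of libraries differed from that of CXCL10 only in that shDNAJC2 1 lay below shDNAJC2 2. IRF7 was at 11.4, 15.5 and 19.5 CPM in the knockdown libraries, against 42.0, 54.7 and 16.7 CPM in the controls, and STAT2 at 51.9, 53.1 and 98.5 CPM, against 138, 147 and 49.8 CPM. Without shCtrl 3, the log2 fold changes of USP18, IRF7 and STAT2 were -2.17, -1.63 and -1.07 (edgeR adjusted p = 9.1e-04, 8.4e-04 and 0.0113). IFNGR1, a subunit of the interferon-gamma receptor, was higher in each knockdown library, at 41.8, 35.7 and 32.4 CPM, against 26.9, 29.1 and 31.3 CPM in the controls. The kinase gene JAK1 was at 158, 148 and 160 CPM in the knockdown libraries, against 168, 175 and 147 CPM in the controls. IFNG and IFNL3 were at 0 in all libraries.

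Of 10962 other genes with a symbol and a mean of at least 5 CPM, those most like CXCL8 in log2 CPM were GCLC, UTP25 and SLC4A5, with Pearson r from 0.99912 to 0.99933 over the 6 libraries. Those most like CXCL10 were NDRG3, RECK and LANCL1, with r from 0.99858 to 0.99900. GCLC, part of the first enzyme of the glutathione pathway, was at 81.4, 82.0 and 73.1 CPM in shDNAJC2 1, 2 and 3, against 39.4, 40.8 and 76.8 CPM in shCtrl 1, 2 and 3. With shCtrl 1 and 2 apart from the other libraries such likeness was common. It exceeded 0.95 for 813 of the 10962 genes with CXCL8 and for 686 with CXCL10. These coefficients therefore only describe a spacing of the libraries that many genes share.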

How the data were processed

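Per the labels' protocols, mRNA was enriched and read from both ends on an Illumina instrument. The deposited values were raw read counts, 1 column per library and 1 row per gene, with no normalization by the authors, as read from its whole-number values and unequal totals. Per the submitters' processing notes, reads were placed on GRCh38 (hg38). Aligner, counter, annotation release and strand setting are not given in the sources used here. Columns matched library titles. Coordinates, exons and transcripts were those of GENCODE 29 on GRCh38, matched by gene identifier.

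All 20532 genes entered 1 fit. It used edgeR 4.0.16 under R 4.3.3 (two-sided quasi-likelihood test, TMM normalization, filterByExpr, Benjamini-Hochberg adjustment over all genes tested, threshold 0.05, group as the only term). Intervals are at 95%. Log2 CPM used a prior count of 2, and CPM used TMM-scaled library sizes. A count of 0 was taken to allow up to 3 counts, which covers counting error only, since reads were not tied to single molecules by identifiers. DESeq2 1.42.0 and limma-voom (limma 3.58.1) were alternatives, with other size factors, 2 other low-count filters, a replicate block and leaving out each library. The scripts were tested on simulated counts.

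All 10 members were named whatever their result. From each pathway list up to 3 tested genes with the smallest p and up to 3 with the highest mean were named, except 1 that is not reported here. The members, lists and motifs were chosen with earlier results of these data known. Replicates of a group differed by more than sampling noise (chi-square per degree of freedom at least 3.62 in each pair of libraries).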

Additional observations from a re-analysis of the deposited data

How the results depend on the processing

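No chemokine gene was called over all 6 libraries by edgeR, under DESeq2 size factors, under either other filter, by DESeq2 or by limma-voom. Leaving out each library in turn gave 0 to 8 chemokine genes called and 0 to 4945 of all genes, with the highest values without shCtrl 3 and 0 in the other 5 fits. DESeq2 called 18 of all genes. With the replicate block, edgeR called 0 chemokine genes and 0 of all genes. Deviations from the group means correlated at -0.38, -0.52 and -0.66 between same-numbered libraries, and at -0.58 to 0.67 between the others. With shDNAJC2 3 and shCtrl 3 apart within their groups, these values cannot tell whether the numbers are pairs. The main fit did not read the numbers as pairs. All 10 log2 fold changes kept their sign under every setting run, except CXCL2, which ranged from -0.23 without shDNAJC2 3, the library in which it was high, to 0.81 without shDNAJC2 2. CXCL1, CXCL5, CXCL6, CXCL8, CXCL10, CXCL11, CXCL12 and CCL2 passed without shCtrl 3 and under no other setting. The difference in the class contrast was 0.99 and ranged from 0.60 to 1.73 when each library was left out. It was 0.98 to 0.99 with other prior counts or size factors, 2.88 for CXCL8 against CXCL10 alone (the cause was not tested) and 0.64 without CXCL8, which was tried only after seeing the data. At this depth a count of 0 allows up to 3 counts, or 0.115 to 0.179 CPM in the different libraries, so a gene at 0 can be present below that level.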
